A study of Rattus norvegicus with 2 samples.

Results

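Genes of blood platelets and of megakaryocytes, the bone marrow cells that shed them, were read out in the cervical lymph nodes of male Sprague-Dawley rats aged 10 to 12 weeks. A set of 10 genes was followed: Pf4, Ppbp, Itga2b, Itgb3, Gp1bb, Gp5, Gp9, Gp6, Treml1 and Tubb1. Every probe whose gene name in the files of the arrays was that of a member was taken. This gave 9 probes for 8 of the 10 members, among 36174 genes by that name column. The other two members, Itga2b and Tubb1, carried an Ensembl transcript in place of a gene name and were recognized by the description of their probe, which brought the total to 11 probes. They are shown but are not counted among the 8.

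The C array held total RNA of control rats, and the RS array held that of rats under restraint stress, for which the animals were fastened on their backs to a board. The labels give no restraint time. The array comparison of the study concerns its RS30 group, the shortest of its restraint times. No genotype, transgene or drug separated the groups, and the sources used here do not state how many rats gave the RNA of an array. There was 1 array per group, so that a difference between C and RS had no replicate check and no p-value was computed.

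Platelets are small blood cells without a nucleus that carry RNA left over from the megakaryocyte. They stop bleeding by sticking to von Willebrand factor through the GPIb-IX-V receptor complex, by responding to collagen through GPVI, and by binding fibrinogen through the integrin of the chains αIIb and β3. Activated platelets release their α-granules, which are rich in the chemokines encoded by Pf4 and Ppbp. The question put to these arrays was whether platelet genes were higher on the RS array together with the genes of red cells.

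The arrays carry probes of 60 bases, and a value is the fluorescence bound to such a probe. Shown here are the probes of the members measured on both arrays, other than that of Gp1bb, together with a further Itgb3 probe that was not well above background, because the values below are those of these sequences. Each has at least 1 reading frame without a stop codon. They are written 5′ to 3′ as the files give them, with no letters capitalized.
Pf4: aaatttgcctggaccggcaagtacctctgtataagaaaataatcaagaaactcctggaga
Itgb3 probe 1: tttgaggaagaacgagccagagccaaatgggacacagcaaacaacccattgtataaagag
Itgb3 probe 2: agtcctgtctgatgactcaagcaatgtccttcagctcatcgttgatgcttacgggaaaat
Gp9: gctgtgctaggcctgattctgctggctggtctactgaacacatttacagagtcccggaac

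The arrays shared 1 slide and 1 scan. By the mark of the scanner software, 54.7% of 45598 probes stood well above background on C and 54.9% on RS. The lowest intensity marked so was 9.45 for C and 8.52 for RS. Negative control spots had a median intensity of 2.16 and 1.95. A log2 difference is that of RS minus C after the 75th percentile of each array was subtracted, and 2-fold, a log2 difference of 1, was the threshold for a change. The error after each difference is 1 spot error, combined from the errors that the scanner software gives for the spots of both arrays. It covers the reading of the spots only and leaves out any spread between rats. All 12 T cell genes and all 10 B cell genes of the lists used here were well above background on both arrays. This shows RNA of lymphocytes on both and does not by itself identify the tissue as a node.

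Of the 8 members, 4 were well above background on both arrays and 4 on neither. None of the 4 measured members passed 2-fold: Pf4, Itgb3 and Gp1bb were higher on the RS array by less than 2-fold, and Gp9 was lower by less than 2-fold. Their median log2 difference was 0.63, and it ranged from -0.60 to 0.94. In what follows, a gene is said to have cleared the background mark when it did so on C, on RS or on both. Over all 21096 genes that cleared it, 3.46% were higher by 2-fold or more and 4.28% were lower, and the median difference was 0.02. For none of the 4 did the 95% interval from the spot errors include 0.

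**Figure D1:**
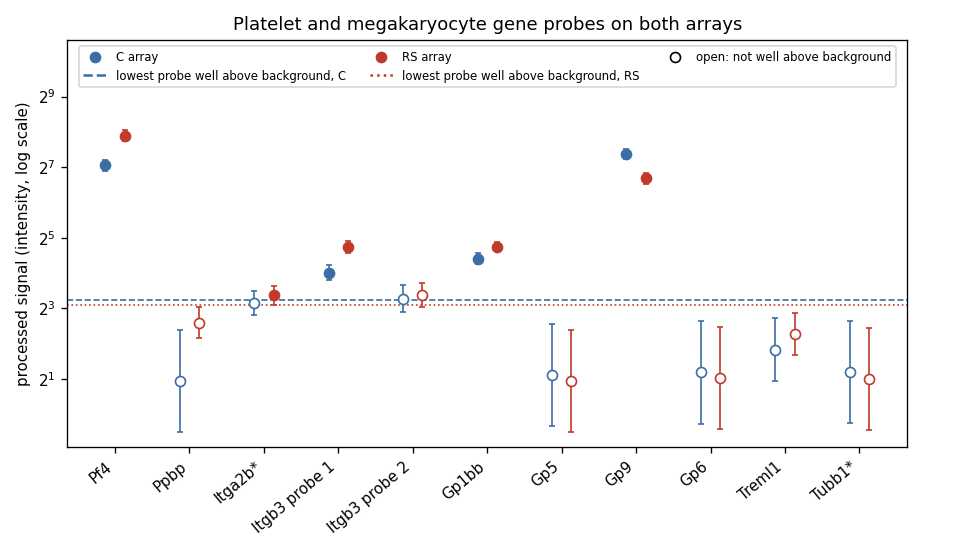
Processed signal (intensity, log scale) of all 11 member probes on the C array (blue) and the RS array (red); bars are 1 spot error, open circles are probes not well above background, and an asterisk marks genes recognized by the description only. Pf4 and Gp9 stand well over the lowest probe marked as above background on each array (dashed and dotted lines) and differ in opposite directions.

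The α-granule chemokines come first. Pf4 encodes platelet factor 4, a heparin-binding chemokine that is among the most abundant proteins of α-granules. Its probe, at chr14:18812555-18812614 on the reverse strand (as placed in the files, with rn4 as the build of their header), read 132 on the C array and 238 on the RS array. The log2 difference was 0.94 ± 0.21, equal to 1.92-fold, and its 95% interval of 0.54 to 1.35 includes the 2-fold threshold. Among all genes with a difference, 3.83% were as high or higher, and among those of the same quartile of signal 2.64%. Ppbp encodes the precursor of the neutrophil-attracting chemokine NAP-2, also stored in α-granules. Its probe lies at chr14:18816439-18816498, and it read 1.92 on the C array and 6.02 on the RS array, not well above background on either. The scanner software marked the signal of RS, but not that of C, as different from background, and no fold is given for it.

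In the RefSeq gene table (GRCr8), Pf4 and Ppbp are neighbors in a row of chemokine genes that also holds Cxcl2, Cxcl1, Cxcl3 and Cxcl6. These neighbors were chosen after their values had been seen. Cxcl1 and Cxcl2, both attractants of neutrophils, rose by a log2 difference of 5.03 ± 0.09 and 3.76 ± 0.23. Cxcl3 was well above background on the RS array only, at a log2 difference of at least 0.57 (spot error 0.61), and Cxcl6 on neither array. The difference of Pf4, which lies between Cxcl3 and Ppbp in that order, was 0.94.

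The subunits of the GPIb-IX-V complex, the von Willebrand factor receptor, did not share a direction. Gp9 encodes GPIX, a small subunit needed to bring the complex to the surface. Its probe at chr4:121967070-121967129 on the forward strand read 166 on the C array and 103 on the RS array, a log2 difference of -0.60 ± 0.21 whose interval ran from about the 2-fold line to -0.19. Of all genes, 8.3% were as low or lower, and of those in the same quartile of signal 8.91%. Gp9 was the only measured member that was lower on the RS array.

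Gp1bb encodes GPIbβ, the subunit bound by disulfide bridges to the chain that holds von Willebrand factor. It was the only member printed in more than 1 spot. Its 2 spots read 20.4 and 22.2 on the C array and 26.8 and 26.6 on the RS array. The log2 difference was 0.43 ± 0.19 (interval 0.05 to 0.81), and 20.8% of the genes in the same quartile of signal were as high or higher. The probe lies at chr11:84370911-84370970 on the forward strand and holds AATAAA, the letters of the usual polyadenylation signal. In RefSeq, Gp1bb overlaps Septin5, a gene of the septin cytoskeleton, and shares its end, so that RNA of Gp1bb and of a Septin5 transcript reaching that end cannot be told apart by this probe. A separate probe for Septin5, placed before Gp1bb, read 30.6 and 23.3, a log2 difference of -0.29 ± 0.26.

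Gp5, which encodes GPV, the subunit cleaved by thrombin, read 2.14 and 1.91 at chr11:72344318-72344377, near the median of the negative control spots on both arrays. Gp1ba, the chain that binds von Willebrand factor, was looked at after its values had been seen and was as dim, at 2.30 and 2.03. Of the 4 genes of the complex, 2 were therefore measured, with differences of opposite sign.

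The fibrinogen receptor αIIbβ3 was measured through its β3 chain. Itgb3 encodes β3, which also pairs with αv on endothelial cells and macrophages. The first of the Itgb3 probes printed above read 16.1 on the C array and 26.6 on the RS array, a log2 difference of 0.82 ± 0.28 (interval 0.28 to 1.37), or 1.77-fold. In its quartile of signal, the lowest, 8.68% of genes were as high or higher. The second probe read 9.63 and 10.3 without clearing the background mark, so that the difference of Itgb3 rests on 1 probe. The files map neither probe to a position. Itga2b encodes αIIb, the chain found on few cells other than platelets and megakaryocytes. Its probe at chr10:91560990-91561049 read 8.84 on the C array, not well above background, and 10.3 on the RS array. Against the background floor of C this gives a log2 difference of at least 0.23, with a spot error of 0.44. The 95% interval of -0.63 to 1.08 includes 0, so the direction of Itga2b is not settled.

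The remaining surface receptors and the platelet tubulin were not measured above background. Gp6 encodes GPVI, the signaling receptor for collagen, and read 2.27 and 2.03. Treml1 encodes a receptor of the α-granule membrane that reaches the surface upon activation. Its probe, which spans 471 bases from chr9:8019288-8019758 on the reverse strand, read 3.56 on the C array and 4.87 on the RS array. The software marked both of these signals as different from background but not as well above it. Tubb1 encodes β1-tubulin, the tubulin of the ring that gives a platelet its disc shape, and read 2.29 and 1.98. Between the arrays, none of these probes gives a fold.

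Precision followed the signal. Probes printed in 10 spots had a median SD between spots of 0.18 to 0.19 log2 units at the intensities of Itgb3 and Gp1bb, and of 0.07 to 0.08 at those of Pf4. Over all genes, 6.2% of the lowest quartile of signal were higher by 2-fold or more, against 2.33% of the third quartile, to which Pf4 belongs. With the normexp background correction, which lessens differences of dim probes, Itgb3 was at 0.25, Gp1bb at 0.16, Gp9 at -0.41 and Pf4 at 0.68.

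Red cell genes were set beside the members. Of the 25 genes of the erythrocyte list, 21 had a probe and 11 cleared the background mark; 7 of these 11 rose by 2-fold or more (63.6%) and none fell, with a median log2 difference of 1.42. Without the globin genes this median was 0.57, which is the value of Rhd (0.57 ± 0.41), well above background on the RS array only. Given that error, it cannot be ranked against the 0.63 of the members. With normexp the erythrocyte median was 0.54 and that of the members 0.20. The same 7 lay above Pf4, the highest member. All 4 globin genes measured rose: Hba1 went from 5953 to 33805 (log2 difference 2.60), Hba2 from 250.2 to 1721 (2.88), Hbb from 224 to 1275 (2.61) and Hbb-b1 from 3747 to 20525 (2.55). Probes of near-identical globin genes may bind each other's RNA, so that these values are not independent. The lowest globin difference exceeded that of Pf4 by 1.61 log2 units. A shift of a whole array cancels in this gap, so that most ways of scaling could not change it. Quantile normalization gave 1.63 and normexp 1.65.

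Other red cell genes gave a divided picture. Alas2, the first enzyme of heme synthesis in erythroid cells, rose from 25.7 to 174, a log2 difference of 2.86 ± 0.24 that exceeded that of Pf4 by 1.91 ± 0.32. Ahsp, a chaperone of α-globin, rose from 17.9 to 45.0 (1.42 ± 0.27). Its distance to Pf4, 0.48 ± 0.34, was below 2 times its error, and with normexp it turned to -0.15. Sptb, the β-spectrin of the red cell skeleton, went from 34.1 to 21.1 (-0.60 ± 0.08), and its other probe read 2.07 and 1.85. The erythroid transcription factor gene Klf1 went from 21.7 to 13.9 (-0.54 ± 0.33). Ank1, ankyrin of the same skeleton, went from 4270 to 5044 (0.34 ± 0.20), and its other probe read 2.27 and 2.02. Neither of these other probes was well above background, so they give no check on the differences of Sptb and Ank1. Klf1 and Ank1 thus lay within the range of the platelet members, Sptb lay level with Gp9 at its lower end, and the globins and Alas2 lay above it.

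**Figure D2:**
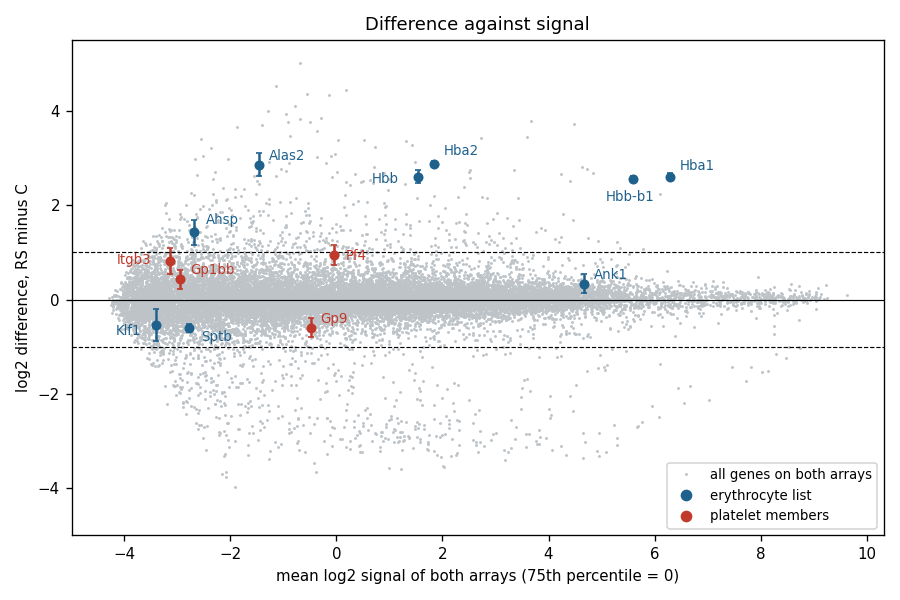
Log2 difference (RS minus C) against the mean log2 signal of both arrays (75th percentile at 0) for all genes well above background on both (grey), the 4 platelet members (red) and the erythrocyte genes named in the text (blue); bars are 1 spot error and dashed lines mark 2-fold. The 4 members lie between -0.60 and 0.94, inside the 2-fold lines, while the 4 globins and Alas2 lie between 2.55 and 2.88.

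In tissue RNA, fewer cells of a type and less RNA per cell cannot be told apart, and this holds for platelets and for red cells alike. In stained sections, the study saw red cells gather in the medullary sinus of its RS30 group, which it did not see in controls. The ratio of platelets to red cells in these nodes was not measured.

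Wider lists held 56 further genes known from platelets and megakaryocytes, all with a probe. Of these, 46 cleared the background mark, 3 rose by 2-fold or more (6.52%, against 3.46% of all genes) and 1 fell (2.17%, against 4.28%). Above 0 lay 31 of the 46, a larger share than the 52.1% of all genes. The median log2 difference of the 46 was 0.15, against 0.02 for all genes. Many of these genes are also expressed by leukocytes, endothelium or stroma. Of the measured members, Itgb3 is shared with endothelial cells and macrophages, and Gp1bb could not be told apart from Septin5 by its probe. Which cells gave the signals of Pf4 and Gp9 was not tested. Pf4 read 132 on C and 238 on RS, and Gp9 read 166 and 103. Ppbp read 1.92 and 6.02, Gp5 2.14 and 1.91, and Gp6 2.27 and 2.03, without clearing the background mark.

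Among 16 receptor genes, 10 cleared it, and their median difference was -0.17. Cd226, an adhesion receptor shared with T and NK cells, fell by 2.85 on the log2 scale at its probe of highest signal, from 6323 to 816 (spot error 0.20). Its other 2 probes differed by -0.29, from 885 to 678, and by -0.03, from 70.3 to 64.2, so that the probes of Cd226 disagreed. The probe that fell holds a run of 6 alternating A and G bases, and the longest such runs in its other probes were of 2 and 3. The probe of Trpc6, described below, also holds a run of 6 and was higher on the RS array by 1.28. The part of such runs in these results was not tested. Cd36, the scavenger receptor of platelets, macrophages and microvessels, went from 2349 to 2114 (-0.05 ± 0.06).

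Among 14 granule genes, 13 were measured, 11 of them above 0, with a median of 0.19. Of the 13, 2 rose by 2-fold or more. F13a1, the catalytic chain of factor XIII, which macrophages also make, rose from 36.4 to 70.7 (1.06 ± 0.22), and stood below 2-fold with normexp, at 0.52, and without normalization, at 0.96. Clu went from 11478 to 11764 (0.13 ± 0.20) and Pdgfa from 6249 to 6099 (0.06 ± 0.20). Both encode proteins that α-granules hold and that many tissues make.

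Among 9 transcription factor genes of the lineage, 7 were measured, 5 of them above 0, none past 2-fold, with a median of 0.21. Fli1, an ETS factor of megakaryocytes, lymphocytes and endothelium, went from 5205 to 4740 (-0.04 ± 0.20), and Zfpm1, the GATA1 partner FOG-1, from 1453 to 926 (-0.55 ± 0.14). Singled out after their values had been seen, the factors closest to the lineage were dim. Gata1 read 2.38 and 10.2, well above background on the RS array only. Its log2 difference was at least 0.21 with a spot error of 1.25, so that its direction is not settled. Nfe2 and Gfi1b did not clear the background mark.

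Of 17 enzyme and signaling genes, 16 were measured, 11 of them above 0, with a median of 0.11. Trpc6, a calcium-permeable channel of platelets and smooth muscle, rose from 17.3 to 39.2 (1.28 ± 0.29), and with normexp stood at 0.38, below 2-fold. Sh2b3, the adaptor Lnk that restrains thrombopoietin signaling, went from 4044 to 4973 (0.40 ± 0.20), and Fcer1g, the signaling partner of GPVI and of Fc receptors, from 2483 to 2325 (0.00 ± 0.14).

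**Figure D3:**
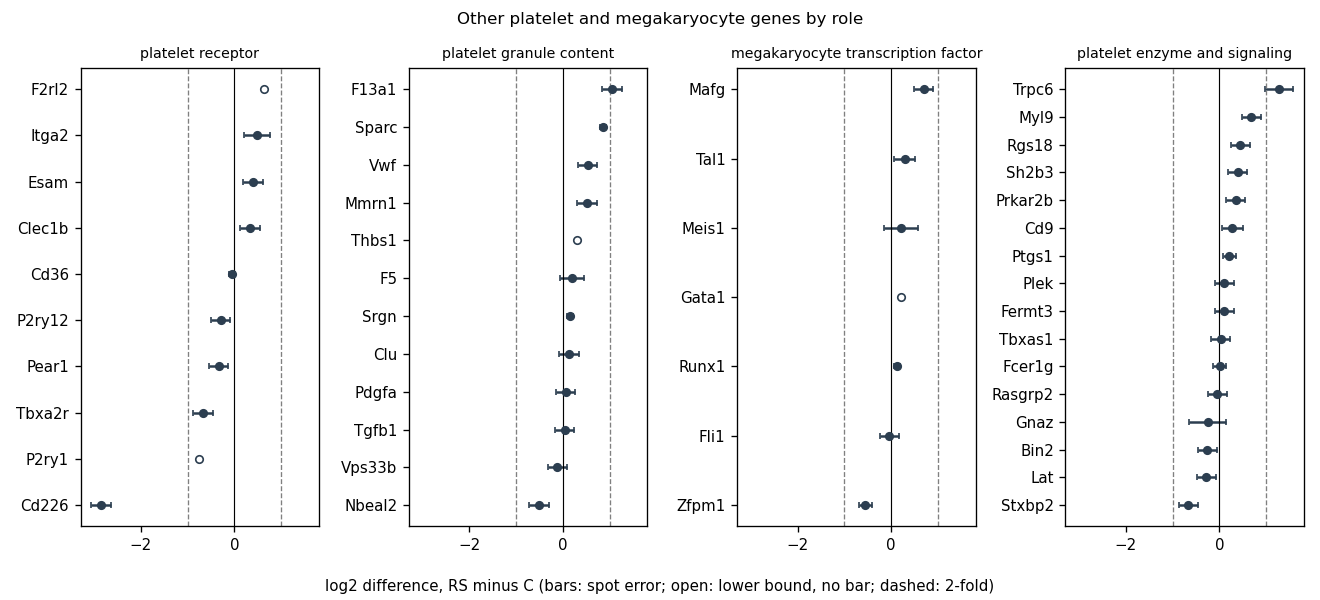
Log2 difference (RS minus C) of further platelet and megakaryocyte genes that cleared the background mark, by role, with 1 granule gene not drawn. Bars are 1 spot error and dashed lines mark 2-fold. Open circles are lower bounds for genes well above background on 1 array only, and their spot error is not drawn. Trpc6 and F13a1 lie past 2-fold upward, and Cd226 downward.

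Markers of other cells differed between the arrays as well, and their part in the values of the members was not tested. Of 12 fat genes, 10 were measured, 9 rose by 2-fold or more, and the median log2 difference was 2.66 (range 0.57 to 3.71). The summed intensity of the fat genes went from 6921 to 18927, and that of the erythrocyte genes from 14561 to 62666. Of 15 neutrophil genes, 10 were measured and 2 rose, with a median of 0.00 and a range of -0.97 to 3.99. For endothelium 15 of 16 genes were measured and 2 rose (median 0.00, range -0.86 to 1.17), and for macrophages and monocytes 16 of 16, of which 1 rose (median 0.01, range -0.91 to 1.67). The summed intensity went from 699 to 1276 for the neutrophil list, from 12368 to 11138 for the endothelial list and from 77177 to 68601 for the macrophage list. All these sums are of intensities before scaling, over genes well above background on both arrays. The 75th percentile was 189 on C and 176 on RS, so small falls in a sum are partly a matter of scale. Lyz2 alone gave 38650 and 35108 of the macrophage sums. T cell genes had a median of -0.16 and B cell genes of -0.02, with none past 2-fold.

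**Figure D4:**
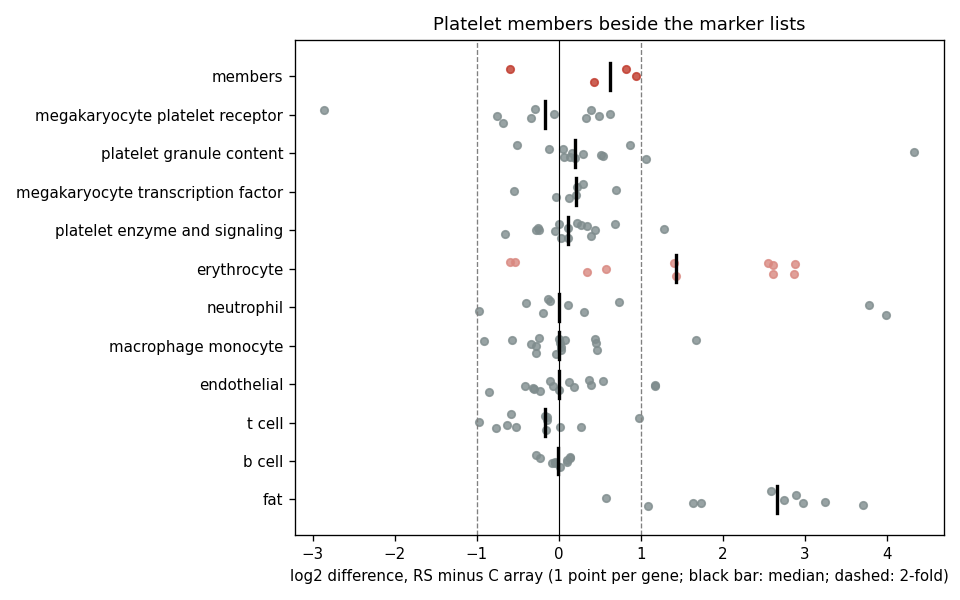
Log2 difference (RS minus C) of each gene that cleared the background mark, for the platelet members, 4 wider platelet lists and 7 lists of other cell types; black bars are medians and dashed lines mark 2-fold. The median of the 4 members (0.63) lies between 0 and the medians of the erythrocyte (1.42) and fat (2.66) lists. Without the globin genes the erythrocyte median was 0.57, the value of Rhd with a spot error of 0.41, which cannot be ranked against that of the members.

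Members were also compared by the DNA before their genes. Megakaryocyte genes are classically driven by GATA and ETS factors acting together. The RefSeq promoter table (GRCr8; 250 bases before to 50 after the start) held 8 of the 10 members, all but Pf4 and Itgb3. A GATA match was taken as AGATAA, or the same letters with a final G, and as TGATAA, or that with a final G, on either strand. Such matches were found in 4 of the 8, namely Itga2b, Gp1bb, Gp5 and Gp6, against 30.3% of 33469 promoters in the table. The ETS letters AGGAAG were found in 5 of the 8, Itga2b, Gp5, Gp9, Gp6 and Tubb1, against 34.5%, and both kinds in 3, against 10.7%. These motifs do not overlap in their letters, and a match is a description of the sequence and not a binding site. Stretches of the 2 measured members of the complex are shown, since their differences had opposite signs, with the GATA letters of Gp1bb and the ETS letters of Gp9 in capitals.
Gp1bb, chr11:95882467-95882496 (GRCr8, + strand, -94 to -65 from the start): gcccaggAGATAGtaccCTATCTgcctctg
Gp9, chr4:121792592-121792841 (GRCr8, + strand, -250 to -1 from the start): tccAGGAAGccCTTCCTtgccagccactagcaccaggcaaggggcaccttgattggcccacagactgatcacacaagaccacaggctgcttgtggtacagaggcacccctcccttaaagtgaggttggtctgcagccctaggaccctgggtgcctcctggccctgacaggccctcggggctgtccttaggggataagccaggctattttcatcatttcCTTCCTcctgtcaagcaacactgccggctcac
The Gp1bb window, which lies inside the Septin5 gene, held 2 GATA matches on opposite strands and no ETS match. The Gp9 window held 3 ETS matches and no GATA match. Of the members with both kinds, Itga2b was well above background on the RS array only, and Gp5 and Gp6 on neither array, so that the letters could not be set against a difference.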

How the data were processed

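Total RNA from cervical lymph nodes was labeled with Cy3 and hybridized to 1-color Agilent rat arrays, 1 per group. The authors deposited spot intensity values from Feature Extraction 11.5.1.1 (build named in the header: rn4), background-subtracted and not normalized between arrays. A deposited log2 table came with them, of which 100% (45598 probes) lay within 0.1 of log2 intensity minus the 75th percentile; it served as an alternative. The columns' medians were -3.52 and -3.55, and its scale is not stated with it.

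Control spots and outlier spots (489 on C, 660 on RS) were left out, log2 spot values of a probe averaged, and the 75th percentile of each array subtracted. A probe counted as well above background when over 50% of its spots were marked so. Genes with several probes took the value of the probe of highest mean signal. Where only 1 array was well above background, the difference is a lower bound against the floor of the other array. The spot error applies to such a bound as well. No saturated spot was found. With 1 array per group no test was possible, and the number of arrays limits precision.

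The members and lists were chosen with earlier results of these data known. Named were all members, of the wider platelet lists the genes past 2-fold and the brightest 2 of each, and the erythrocyte genes measured on both arrays; exceptions are marked, and a few genes meeting this rule are not reported here. Probes were to be printed where their translation matched the RefSeq protein, but no protein table was used here, so an open reading frame without AATAAA was asked for instead. Calculations used Python 3.11.15, numpy 2.4.6, pandas 2.3.3, matplotlib 3.10.9, R 4.3.3 and limma 3.58.1 (normexp, offset 50), and the steps were tested on simulated data.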

Additional observations from a re-analysis of the deposited data

How the results depend on the processing

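No paired analysis was possible because C and RS have 1 array each, and for the same reason no replicate could be left out. The 11 settings listed at the outset reversed no direction among Pf4 (0.68 to 0.97), Itgb3 (0.25 to 0.85), Gp1bb (0.16 to 0.46) and Gp9 (-0.69 to -0.41). Not all of them could do so. Averaging over probes, taking the plain ratio of signals and changing the background filter left these values unchanged, since they cannot act on these genes. Another 3 settings, chosen after seeing the data, left out Gp1bb or the globin genes or added the members recognized by description, and were run for counts and medians. No member passed 2-fold, except Ppbp with no filter on background, which gave 1 member past 2-fold (log2 difference 1.75, spot error 1.52). The median of the members was 0.20 with normexp, and 0.43 to 0.82 otherwise, with 0.43 when the members recognized by description were included and 0.82 without Gp1bb. The erythrocyte median was 0.54 with normexp, 1.99 when genes had to clear the background mark on both arrays, 0.58 with no filter on background and 0.57 without the globin genes. Over all genes, normexp gave 234 higher and 378 lower by 2-fold, and no filter 2031 and 2148. Some of these settings change which genes enter. The erythrocyte median covered 11 genes as reported, 10 with both arrays required, 21 with no filter and 7 without the globin genes. Beyond this, the cause of the changes was not tested. Signal over background limits what can be said of Ppbp, Gp5, Gp6, Treml1 and Tubb1: these arrays set no fold for them, which does not show that their RNA was absent.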
